A study of Mus musculus with 8 samples.

Results

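The 59 genes described here are nuclear genes for subunits of the mitochondrial respiratory chain in cultured mouse oligodendrocyte progenitors. They were taken by name from a fixed list of subunits of complexes I, II, III and IV with cytochrome c, and all 59 were found among the 56980 genes of the deposited count table. Complex I is represented by 35 genes, complex II by 4, complex III by 9, cytochrome c by 1 and complex IV by 10. Ndufa4 is placed with complex IV, to which its protein belongs despite its name. The RNA came from PDGFRa+ oligodendrocyte progenitor cells, the dividing precursors of myelinating cells, taken by immunopanning from the cortex of WT C57BL/6 pups of either sex at postnatal day 6 to 8. Both groups were cultured with 10 ng/mL PDGF-AA after bFGF, used at 20 ng/mL for expansion, had been washed out. One group, high glucose (HG), was kept in 25 mM glucose. In the other, low glucose (LG), the concentration was lowered stepwise, through 12.5 mM (day 1) and 5 mM (day 2), until it reached 2.5 mM (day 3). RNA of both was taken on day 5. Each group has 4 libraries, numbered 1 to 4, and the labels give libraries 1 and 2 of both groups the same preparation code, so n = 4 counts libraries and the spread between them may be partly technical.

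The respiratory chain sits in the inner mitochondrial membrane. Complex I takes electrons from NADH and complex II takes them from succinate, complex III passes them from ubiquinol to cytochrome c, and complex IV hands them to oxygen. Complexes I, III and IV pump protons while they do so, and the gradient drives ATP synthesis by complex V. Most subunits are encoded in the nucleus, and the catalytic core of complexes I, III and IV also needs subunits encoded in mitochondrial DNA. In the oligodendrocyte lineage the chain is known to supply much of the ATP of the progenitors, while mature oligodendrocytes are known to survive largely on glycolysis.

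Total counts ran from 50864130 to 65733928 per library and the groups overlapped (p = 0.543 in a two-sided exact permutation test over 70 assignments). The 13 protein-coding genes of mitochondrial DNA are listed at 0 counts in all 8 libraries, so the nuclear and mitochondrial subunits of a complex could not be set side by side. Markers of oligodendrocyte progenitors were abundant in all 8 libraries, with Pdgfra, the receptor used for panning, at 1411 to 2147 CPM (counts scaled to the library total). Of 8 microglial markers Cx3cr1 was at 0 in all 8 libraries and the highest, Cd68, at 0.777 to 2.20 CPM. Of 6 endothelial markers Cldn5 was at 0 in all 8 libraries, while Vwf was at 1.75 to 5.46 CPM and Kdr at 1.23 to 3.73 CPM. Of the 10 neuronal markers Map2 was at 817 to 1011 CPM and Gap43 at 140 to 276 CPM, and Rbfox3 at 1.19 to 2.73 CPM. Summed over 10 astrocyte markers, the level was 851 to 1880 CPM (HG) and 754 to 2034 CPM (LG). It was higher in libraries 1 and 2 than in libraries 3 and 4 of both groups.

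Nuclear respiratory genes are known to carry binding sites for NRF1, for the ETS factor GABP and for YY1 near their starts. The RefSeq promoter table (GRCm38.p6, 250 bases before to 50 bases after each start) held 49 of the 59 genes, with 51 promoters. The NRF1 motif GCGCANGCG, in which N is any base, was found on either strand in 15 of the 51 promoters (29.4%), against 6.25% of all 32851 promoters of the same length. The ETS motif CCGGAAG was in 11 (21.6%, against 8.86%) and the YY1 motif AAGATGGCG in 5 (9.8%, against 1.4%), and at least 1 of the 3 motifs was in 27 (52.9%, against 14.8%). All 5 YY1 matches lay after the start, beginning at 23 to 36 bases, on the strand of the gene. The promoters of these genes were richer in GC, with a median of 59.0% against 52.7%, and the part of this in the matches was not tested. Sequence upstream of 1 gene each of complexes I, III and IV is shown, chosen after the sequences were read, to show matches that lie before the start of the gene. Capitals mark the matches, which run together where matches overlap, and bases inside the annotated gene were left off. Positions count from the start in the promoter table, while the annotated gene can begin upstream of it. Left off on that account were NRF1 matches of Ndufb4 at -79 and -22 and an ETS match of Cox6a1 at -16. For complex II none is shown, since the sequence with matches upstream of Sdha and Sdhd lies largely in exons of neighbouring genes. Ndufb4, of the complex I membrane arm, has an NRF1 match on its own strand that begins at -191 from the start (GRCm38, chr16:37654454-37654568, minus strand). Uqcrh, the hinge protein of complex III, has an ETS match on the opposite strand that begins at -10 (GRCm38, chr4:116075072-116075270, minus strand). Cox6a1, of complex IV, has NRF1 matches on its own strand that begin at -162 and -117 and one on the opposite strand that begins at -161 and overlaps the first (GRCm38, chr5:115348982-115349158, minus strand), and 29 bases of the stretch lie in an exon of Gm42903.
Ndufb4: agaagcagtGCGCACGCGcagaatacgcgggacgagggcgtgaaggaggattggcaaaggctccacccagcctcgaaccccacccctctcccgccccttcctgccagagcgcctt
Uqcrh: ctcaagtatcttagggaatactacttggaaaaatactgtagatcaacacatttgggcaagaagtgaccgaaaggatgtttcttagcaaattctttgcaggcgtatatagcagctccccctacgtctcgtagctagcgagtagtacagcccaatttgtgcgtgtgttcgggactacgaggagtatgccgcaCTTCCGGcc
Cox6a1: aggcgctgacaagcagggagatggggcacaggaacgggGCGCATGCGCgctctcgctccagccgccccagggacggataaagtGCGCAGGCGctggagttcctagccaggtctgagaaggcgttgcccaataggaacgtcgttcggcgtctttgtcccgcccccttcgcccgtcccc
A match describes the letters only. The log2 fold change of LG over HG, described below, had a median of 0.074 in the 14 genes with an NRF1 match and 0.093 in the other 35 genes of the promoter table. For the ETS motif the medians were 0.091 in 11 genes and 0.088 in 38, and for the YY1 motif 0.10 in 5 genes and 0.087 in 44.

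Levels were compared between genes per length, as RPKM (CPM divided by the mRNA length in kilobases). The median of the 59 genes was 97.6 RPKM, against 5.14 RPKM over the 18424 genes with a known length among the 18905 tested. Complex IV stood highest with a median of 264 RPKM, followed by complex III at 104 RPKM, complex II at 85.4 RPKM and complex I at 79.96 RPKM. The 4 genes with the highest means were all of complex IV: Cox6a1 at 436 RPKM, Cox6b1 at 408, Cox4i1 at 402 and Cox8a at 363. Uqcrh of complex III at 349 RPKM and Ndufa4 at 314 RPKM came next. Within complex I the highest were Ndufa7 at 175 RPKM, Ndufb11 at 166 and Ndufc2 at 150.0. At the other end were Ndufab1, the mitochondrial acyl carrier protein, at 12.2 RPKM and Ndufb2 at 3.66 RPKM. The transcript models of Ndufab1 and Ndufb2 are 3479 and 4371 bases long, against a median of 875 bases in the 59 genes. For either gene a shorter real mRNA would give a higher value.

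**Figure D1:**
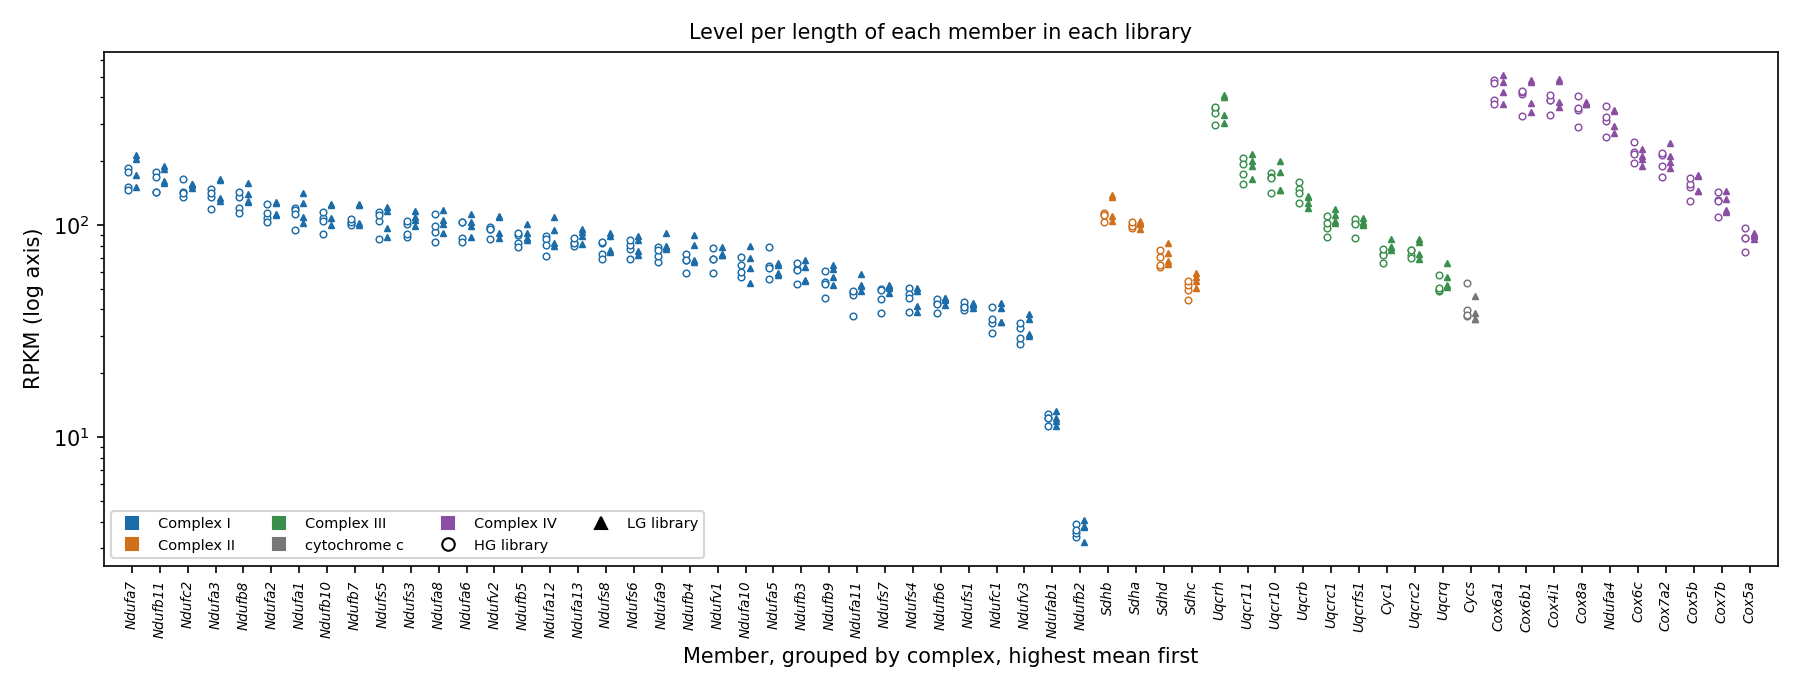
Level of each gene (RPKM, log axis) in the 4 HG libraries (open circles) and the 4 LG libraries (filled triangles), grouped by complex and sorted by mean. Open and filled symbols overlap for every gene, and complex IV reaches the highest levels while Ndufab1 and Ndufb2 lie far below the rest of complex I.

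The spread of a gene over the 8 libraries was small next to these differences. The coefficient of variation ran from 2.84% for Ndufs1, the largest core subunit of complex I, to 15.0% for Cycs. In each library the 59 genes together came to 0.612%, 0.570%, 0.654% and 0.652% of the TMM-adjusted library total in HG 1 to 4. They came to 0.707%, 0.609%, 0.708% and 0.607% in LG 1 to 4. The TMM factors ran from 0.966 to 1.03, so these values are not shares of the raw counts. The order of raw shares can differ. On the adjusted scale LG 1 and LG 3 were highest and HG 2 lowest. LG 2 and LG 4 lay below HG 1, HG 3 and HG 4, so the groups overlapped. The group means were 0.622% ± 0.040 in HG and 0.658% ± 0.057 in LG (SD, n = 4). Since these are bulk cultures, a lower level of an mRNA per cell and a smaller share of cells that carry it cannot be told apart.

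**Figure D2:**
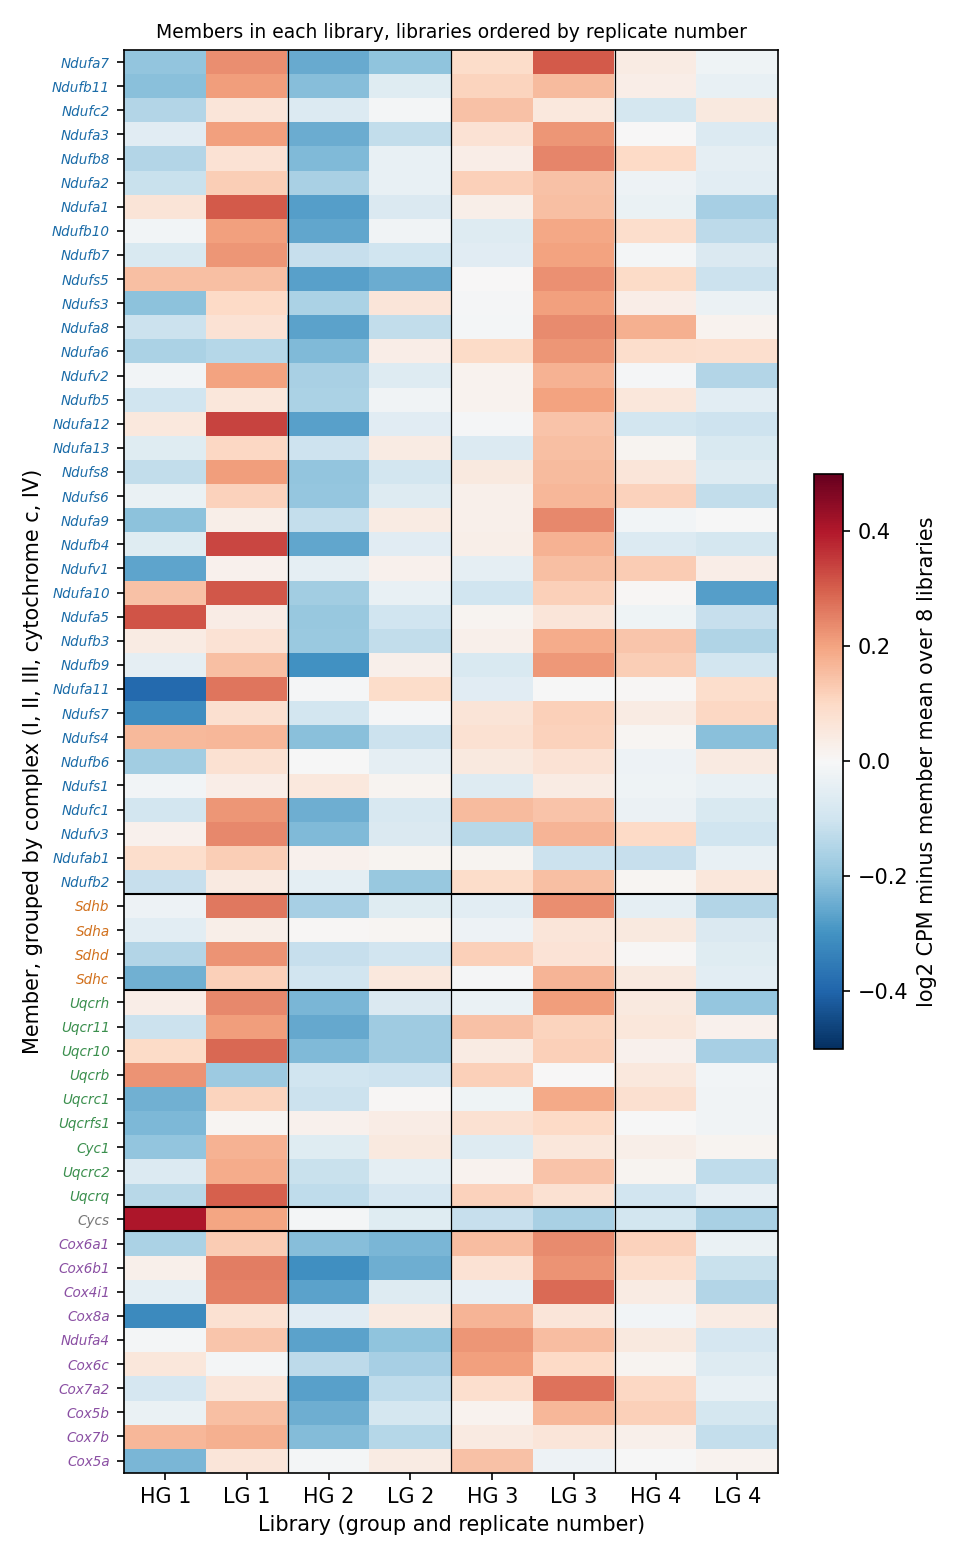
Deviation of log2 CPM from the mean over the 8 libraries for each of the 59 genes, with HG and LG libraries of the same number side by side and genes grouped by complex. In pairs 1, 2 and 3 most genes are redder in LG than in HG, in pair 4 most are bluer, and both libraries of pair 2 are low.

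No respiratory chain gene passed the test of LG against HG. The question was whether the genes of the chain differ between progenitors held at low and at high glucose. Without a block, edgeR's quasi-likelihood test called 0 of the 59 genes at a Benjamini-Hochberg adjusted p under 0.05, and 0 of all 18905 genes (0.0%). At an unadjusted p under 0.05 it found 0 of the 59 and 745 of all genes (3.94%). DESeq2 called 0 of the 59 and 7 of all genes. With the replicate number as a block, edgeR called 79 of all genes (0.418%) and again 0 of the 59, whose lowest adjusted p was 0.291, and DESeq2 called 453 of all genes and 0 of the 59. For none of the 59 did the 4 HG and the 4 LG libraries lie apart, against 2.89% of all genes.

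Small differences in one direction ran through the set all the same. The log2 fold change was above 0, that is higher in LG, for 51 of the 59 genes without the block, against 51.4% of all genes. The median was 0.094, against 0.0051 over all genes. With the block the count was again 51, against 50.4%, and the median 0.091. An unadjusted p under 0.05 with the block was reached by 5 genes, all higher in LG, against 6.02% of all genes that were higher at that level. These were the complex I genes Ndufs3, Ndufb4, Ndufa9, Ndufa11 and Ndufa12. The share of 5 in 59 is 8.47%, near that background.

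**Figure D3:**
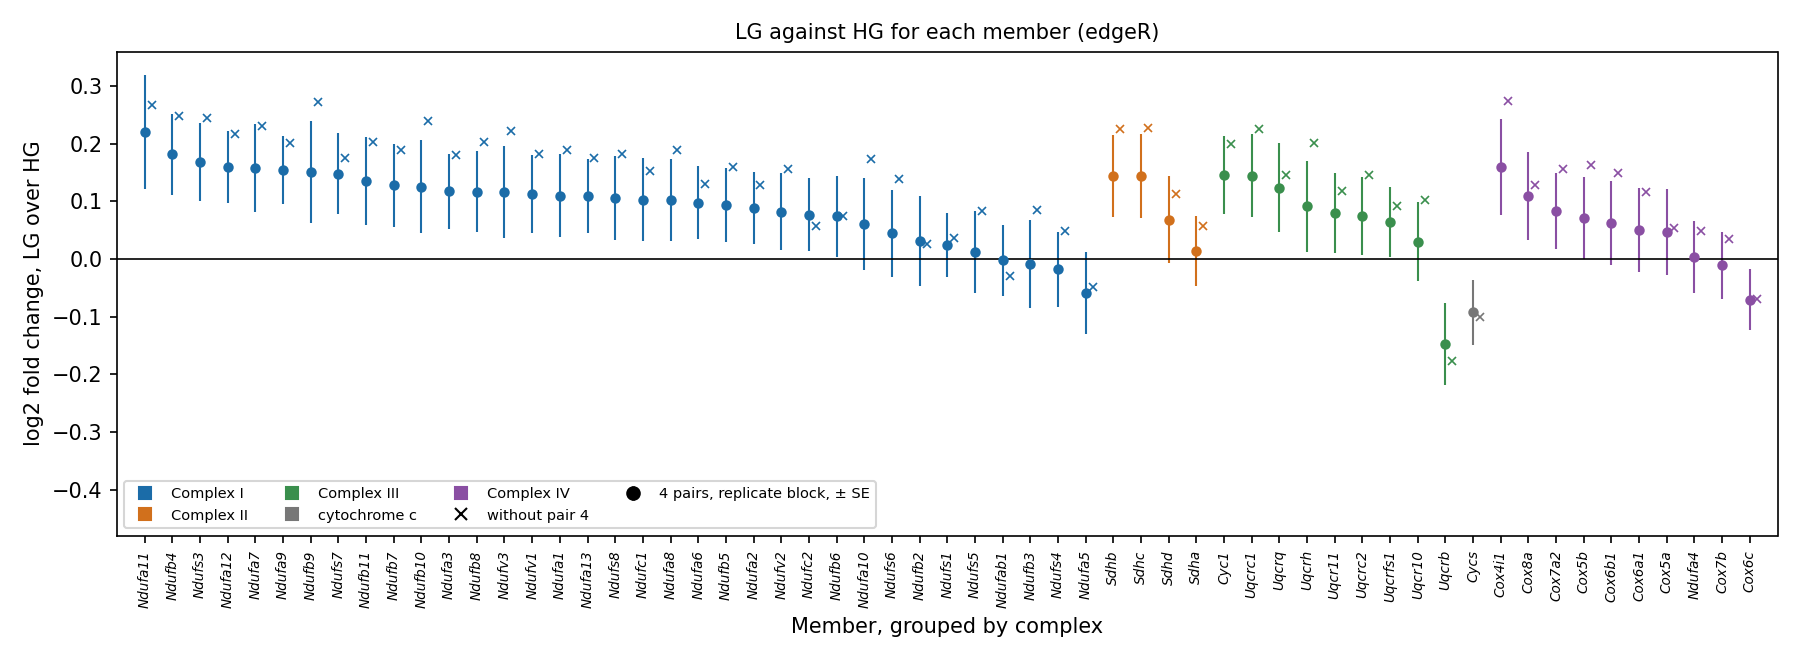
The log2 fold change of LG over HG from edgeR with the replicate block (points, ± SE) for each gene by complex, and the same without pair 4 (crosses). Most points lie between 0 and 0.2, Uqcrb and Cycs lie lowest, and nearly all crosses lie above their points.

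The core of complex I, the part that carries the NADH site and the iron-sulfur clusters, had 6 nuclear members, and all 6 had a log2 fold change above 0 in both fits. Their median with the block was 0.11. Ndufs3 (ENSMUSG00000005510, chromosome 2, 90894634 to 90904827, GRCm38), a subunit of the arm that leads electrons to ubiquinone, had the largest. Ndufs3 was counted at 92.1, 95.1, 106 and 109 CPM in HG libraries 1 to 4 and at 114, 111, 122 and 104 CPM in LG libraries 1 to 4. LG 1, LG 2 and LG 3 lay above all HG libraries, and LG 4 lay within them. The means were 100.3 ± 8.01 (HG) and 113 ± 7.62 (LG) CPM (SD, n = 4), the log2 fold change with the block was 0.17 (SE 0.068), and edgeR's adjusted p was 0.311. An annotated pseudogene copy of this gene elsewhere in the genome held 16.2% as many counts, so its value is less certain. Ndufs7, which holds the last iron-sulfur cluster before ubiquinone, was counted at 38.0, 44.2, 49.3 and 48.4 CPM in HG libraries 1 to 4 and at 49.8, 46.9, 51.1 and 50.6 CPM in LG libraries 1 to 4. All 4 pairs were higher in LG, and HG 1 was far below the other 7 libraries. Its log2 fold change was 0.15 (SE 0.071) with an edgeR adjusted p of 0.394. Ndufs8, another iron-sulfur subunit, stood at 77.4 ± 6.85 (HG) and 83.4 ± 8.86 (LG) CPM, with a log2 fold change of 0.11 (SE 0.073). Ndufv1, which binds NADH and FMN, was counted at 98.5, 115, 115 and 129 CPM in HG libraries 1 to 4 and at 120.0, 120.0, 131 and 121 CPM in LG libraries 1 to 4. The highest HG library, HG 4, lay above 3 of the 4 LG libraries. Its log2 fold change was 0.11 (SE 0.068), that of Ndufv2, its iron-sulfur partner, 0.082 (SE 0.067), and that of Ndufs1, with the largest number of clusters, 0.024 (SE 0.055). Ndufs1 was the steadiest of the 59 genes, at 110.0 ± 3.69 (HG) and 112 ± 2.72 (LG) CPM.

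The accessory subunits at the far end of the membrane arm of complex I, named Ndufb, had a log2 fold change above 0 for 9 of 10 members, with a median of 0.12 with the block. Ndufb4 (ENSMUSG00000022820, chromosome 16, 37647170 to 37654453), whose promoter is shown above, led them. Ndufb4 was counted at 66.5, 57.9, 70.6 and 66.0 CPM in HG libraries 1 to 4 and at 87.3, 66.7, 78.1 and 65.2 CPM in LG libraries 1 to 4. LG 1 and LG 3 were the highest of the 8 libraries, HG 2 was the lowest, and LG 2 and LG 4 lay among the HG libraries. With the block its log2 fold change was 0.18 (SE 0.070) and edgeR's adjusted p 0.296, and 2 pseudogene copies in the genome held 35.4% as many counts. Ndufb11, an X-linked subunit and one of the most abundant of complex I, stood at 144 ± 16.6 (HG) and 158 ± 14.8 (LG) CPM with a log2 fold change of 0.14 (SE 0.076). Ndufb3 was the one member below 0. It was counted at 47.3, 40.4, 46.7 and 50.5 CPM in HG libraries 1 to 4 and at 48.3, 42.1, 52.3 and 41.4 CPM in LG libraries 1 to 4, so the groups covered the same range, and its log2 fold change was -0.0086 (SE 0.077). The next lowest, Ndufb2, had 0.032 (SE 0.078).

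The other 19 accessory subunits of complex I belong to the matrix arm and to the near part of the membrane arm, and 16 had a log2 fold change above 0, with a median of 0.10 with the block. Ndufa11 (ENSMUSG00000002379, chromosome 17, 56717767 to 56722141), a membrane subunit near the joint of the arms, had the largest value of all 59 genes. Ndufa11 was counted at 20.3, 26.5, 25.6 and 26.7 CPM in HG libraries 1 to 4 and at 32.0, 28.4, 26.5 and 28.3 CPM in LG libraries 1 to 4. It was higher in LG in all 4 pairs, HG 1 was far below the other libraries, and LG 3 and HG 4 reversed the order of the groups by a small margin. LG exceeded HG by a log2 fold change of 0.22 (SE 0.099), with an edgeR adjusted p of 0.365. The difference in pair 1 was 0.66, and in pairs 2, 3 and 4 it was 0.099, 0.052 and 0.081 in log2 CPM. Ndufa9, which binds NADPH beside the ubiquinone site, was counted at 96.9, 103, 114 and 111 CPM in HG libraries 1 to 4 and at 114, 115, 132 and 112 CPM in LG libraries 1 to 4. LG 3 was the highest, all 4 pairs were higher in LG, and LG 1, LG 2 and LG 4 lay close to HG 3. Its log2 fold change was 0.15 (SE 0.059), with the lowest edgeR adjusted p of the 59 genes, 0.291. Ndufa12 had 0.16 (SE 0.063) with an adjusted p of 0.303 by the same test, and Ndufa7, the most abundant gene of complex I per length, 0.16 (SE 0.077) with 0.404. Ndufc2, a small membrane subunit, had 0.077 (SE 0.063). The 3 members below 0 were Ndufa5, Ndufs4 and Ndufab1. Ndufa5 was counted at 68.9, 48.5, 55.9 and 54.6 CPM in HG libraries 1 to 4 and at 56.8, 51.7, 57.8 and 51.1 CPM in LG libraries 1 to 4, and HG 1 alone lay above the range of the other libraries. The fitted value for Ndufa5 was -0.059 (SE 0.071). Ndufs4, whose loss is a known cause of mitochondrial encephalopathy, had -0.018 (SE 0.065) and Ndufab1 -0.0022 (SE 0.062).

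Complex II, the succinate dehydrogenase that also serves the citric acid cycle, is encoded wholly in the nucleus, and all 4 genes had a log2 fold change above 0. Their median was 0.11 in both fits. Sdhb (ENSMUSG00000009863, chromosome 4, 140961203 to 140979193), the iron-sulfur subunit, was counted at 129.6, 118, 127 and 128 CPM in HG libraries 1 to 4 and at 158, 126, 155 and 119 CPM in LG libraries 1 to 4. LG 1 and LG 3 lay above all HG libraries, and LG 2 and LG 4 fell within the HG range. This gave a log2 fold change of 0.14 (SE 0.072) with an edgeR adjusted p of 0.411. Sdhc, one of the membrane anchors, was counted at 141, 156, 166 and 173 CPM in HG libraries 1 to 4 and at 181, 173, 188 and 161 CPM in LG libraries 1 to 4. Its highest libraries were again LG 3 and LG 1, while LG 4 lay below HG 3 and HG 4, and its log2 fold change was 0.14 (SE 0.073) with an adjusted p of 0.418 by the same test. The other anchor, Sdhd, stood at 84.8 ± 7.29 (HG) and 89.0 ± 9.09 (LG) CPM with 0.068 (SE 0.076). Sdha, the flavoprotein with the succinate site, was counted at 280.0, 292, 286 and 300.4 CPM in HG libraries 1 to 4 and at 297, 293, 303 and 276 CPM in LG libraries 1 to 4. The means of 289 ± 8.69 (HG) and 292 ± 11.5 (LG) CPM (SD, n = 4) differed by less than the spread within either group, and its log2 fold change was 0.013 (SE 0.060).

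Complex III, the cytochrome bc1 complex, had 8 of 9 genes above 0, with a median of 0.080 with the block. Cyc1 (ENSMUSG00000022551, chromosome 15, 76343523 to 76346260), cytochrome c1, was counted at 101, 111, 110.2 and 118 CPM in HG libraries 1 to 4 and at 130.0, 119, 120.0 and 116 CPM in LG libraries 1 to 4. LG 1 was the highest and HG 1 the lowest, HG 4 lay among the LG libraries, and HG 2 and HG 3 lay below them all. Cyc1 had a log2 fold change of 0.15 (SE 0.068) with an edgeR adjusted p of 0.381. Uqcrc1, a core protein on the matrix side, was counted at 145, 159, 169 and 181 CPM in HG libraries 1 to 4 and at 185, 172, 196 and 169 CPM in LG libraries 1 to 4. LG 1 and LG 3 lay above all HG libraries and HG 4 came next, and the log2 fold change was 0.14 (SE 0.072). Its partner Uqcrc2 had 0.074 (SE 0.068), and Uqcrfs1, the Rieske iron-sulfur protein, 0.065 (SE 0.060). Of the small subunits, Uqcrh stood at 184 ± 15.8 (HG) and 197 ± 28.7 (LG) CPM with 0.091 (SE 0.079), Uqcrq had 0.12 (SE 0.077) and Uqcr11 0.080 (SE 0.069). Uqcrb (ENSMUSG00000021520, chromosome 13, 66900617 to 66905378), a small subunit at the ubiquinone-binding end, ran the other way and had the lowest value of the 59 genes. Uqcrb was counted at 85.2, 68.1, 79.3 and 75.5 CPM in HG libraries 1 to 4 and at 64.3, 67.9, 73.1 and 72.2 CPM in LG libraries 1 to 4. It was lower in LG in all 4 pairs, with differences of -0.41, -0.0038, -0.12 and -0.065 in log2 CPM. LG 1 was the lowest library and HG 1 the highest, and HG 2 lay among the LG libraries. Its fitted log2 fold change was -0.15 (SE 0.071) with an edgeR adjusted p of 0.398, and with offsets for GC content and length it was 0.018.

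Cycs (ENSMUSG00000063694, chromosome 6, 50562563 to 50566538), cytochrome c, carries electrons from complex III to complex IV and also starts the caspase cascade when it leaves the mitochondrion. Cycs was counted at 166, 125, 116 and 118 CPM in HG libraries 1 to 4 and at 144, 120.2, 112 and 112 CPM in LG libraries 1 to 4. Both libraries numbered 1 lay above the other 6, and in each of the 4 pairs LG was lower than HG. Cycs had a log2 fold change of -0.093 (SE 0.056) with the block, with an edgeR adjusted p of 0.502, and with the offsets it was 0.021. Its 3 pseudogene copies in the genome held 31.0% as many counts.

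Complex IV, cytochrome c oxidase, had 8 of 10 genes above 0, with a median of 0.056 with the block, the lowest of the 4 complexes in that fit. With offsets for GC content and length beside the block its median was 0.11, against 0.11 for complex I, 0.093 for complex II and 0.086 for complex III, so the low rank of complex IV did not hold there. Cox4i1 (ENSMUSG00000031818, chromosome 8, 120668222 to 120674207), the regulatory subunit that binds ATP, was counted at 296, 254, 297 and 314 CPM in HG libraries 1 to 4 and at 364, 292, 371 and 276 CPM in LG libraries 1 to 4. LG 1 and LG 3 lay far above the other 6 libraries, while LG 4 and LG 2 lay below HG 1, HG 3 and HG 4. This made a log2 fold change of 0.16 (SE 0.083) with an edgeR adjusted p of 0.436. Cox6a1, the most abundant of the 59 genes per length, was counted at 222, 213, 275 and 268 CPM in HG libraries 1 to 4 and at 269.9, 211, 291 and 242 CPM in LG libraries 1 to 4. HG 3 and HG 4 lay among the LG libraries and LG 2 was the lowest of the 8. Its log2 fold change was 0.050 (SE 0.072), that of Cox6b1 0.063 (SE 0.073), that of Cox5a 0.047 (SE 0.074) and that of Cox5b 0.071 (SE 0.072). Ndufa4 stood at 191 ± 26.1 (HG) and 192 ± 22.8 (LG) CPM and had a log2 fold change of 0.0031 (SE 0.062), which was 0.13 with the offsets, the largest of complex IV in that fit. Cox6c (ENSMUSG00000014313, chromosome 15, 35925886 to 35938246), a small membrane subunit, was counted at 164, 144, 182 and 159 CPM in HG libraries 1 to 4 and at 157, 140.4, 169 and 151 CPM in LG libraries 1 to 4. It was lower in LG in all 4 pairs, but by less than the differences between the numbers, and its log2 fold change was -0.070 (SE 0.053).

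The direction was not the same in the 4 pairs of libraries. In pair 1 the 59 genes had a median difference, LG minus HG in log2 CPM, of 0.23, and 55 genes were higher in LG, against 50.0% of all genes. In pair 2 the median was 0.10 with 51 genes higher, against 51.5%, and in pair 3 it was 0.12 with 47 genes higher, against 50.7%. In pair 4 the median was -0.093 and 49 genes were lower in LG, while 48.2% of all genes were higher. The medians over all genes ran from -0.0089 to 0.0063. Pairs 1, 2 and 3 were all higher in LG for 42 of the 59 genes, against 23.9% of all genes. Of these 42, 39 were lower in pair 4, a pattern that 13.1% of all genes had. Only Ndufs7, Ndufa9 and Ndufa11 were higher in all 4 pairs, against 10.8% of all genes, and Uqcrb, Cycs and Cox6c were lower in all 4, against 11.0% of all genes.

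In each complex pair 1 was the highest and pair 4 the lowest. Complex I had medians of 0.22, 0.13, 0.15 and -0.070 in pairs 1 to 4, and their SD was 0.12. For complex II they were 0.32, 0.061, 0.13 and -0.10, with an SD of 0.18. Complex III had 0.25, 0.061, 0.076 and -0.065, with an SD of 0.13, and complex IV 0.21, 0.071, 0.049 and -0.14, with an SD of 0.14. The mean over pairs was 0.11 for complex I, 0.10 for complex II, 0.081 for complex III and 0.045 for complex IV. The SD between pairs was above the mean in each complex, and the means of the complexes differed from each other by less than that SD. Leaving out pair 4, in which most of the 59 genes ran the other way, was bound to raise most of their values. Without pair 4, the fit with the block had a median of 0.16 for the 59 genes, 54 above 0 and 33 with an unadjusted p under 0.05. Of these 33, 32 were higher in LG, against 10.9% of all genes higher at that level, and Uqcrb was lower. This fit called 148 of all genes (0.787%, of which higher in LG 0.276%), and Cox4i1 was the only 1 of the 59 among them, with a log2 fold change of 0.27 and an edgeR adjusted p of 0.0493. Without pair 1 the median was 0.035, with 0 genes of the 59 called and 0 at an unadjusted p under 0.05. Without pair 2 the median was 0.083 and without pair 3 it was 0.084. These 2 fits called 0 of the 59 and had 0 and 2 of them at an unadjusted p under 0.05.

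**Figure D4:**
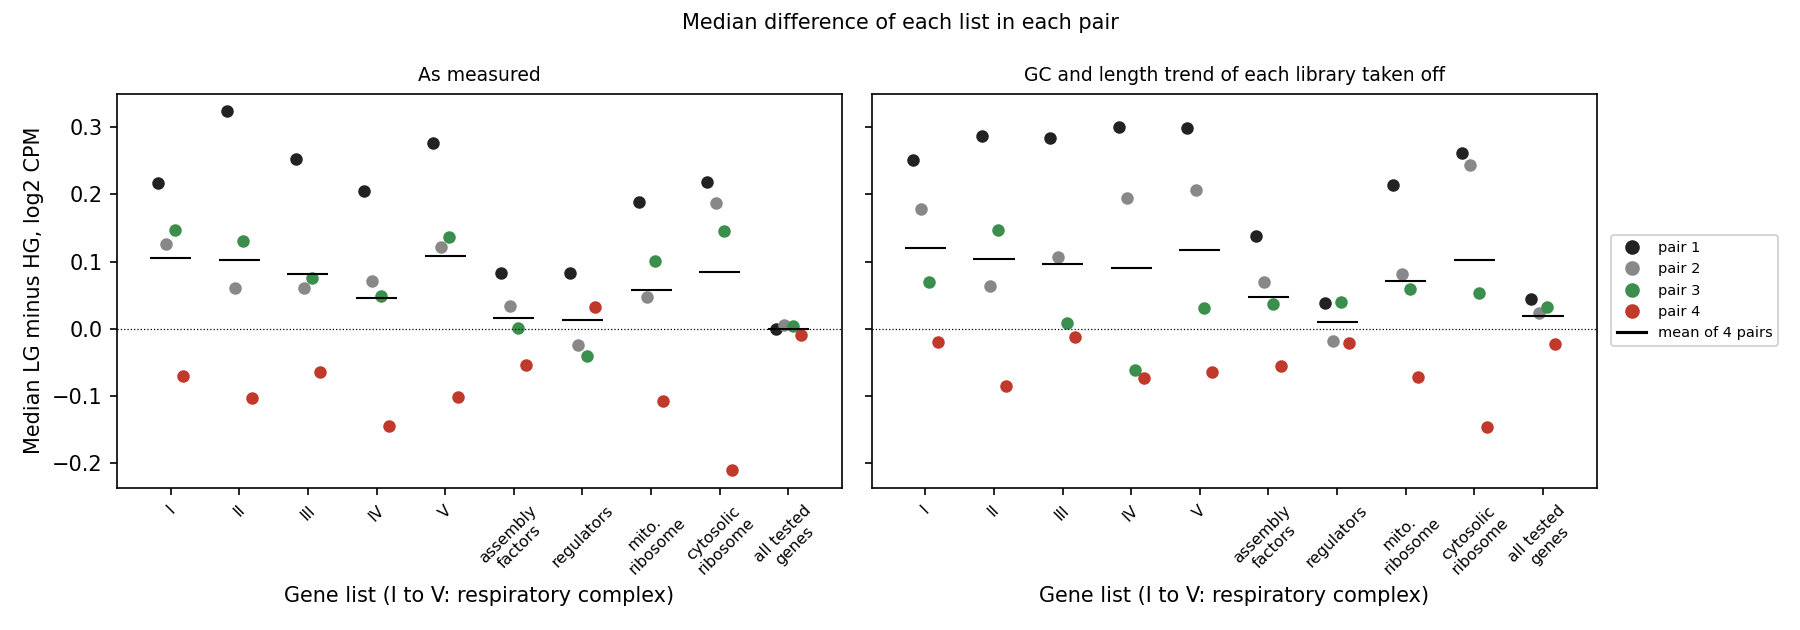
Median difference of LG minus HG (log2 CPM) over the genes of each list in each of the 4 pairs, with the mean of the pairs as a bar, as measured (left) and with each library's trend on GC content and mRNA length taken off (right). For complexes I to V and both ribosomal lists pair 1 is highest and pair 4 lowest as measured, and the dots of all tested genes lie near 0.

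Pair 1 was also the highest and pair 4 the lowest in complex V, in both lists of ribosomal proteins and in the assembly factors of the chain. The 15 tested subunits of complex V, the ATP synthase, all had a log2 fold change above 0 with the block, with a median of 0.10 and a pair 4 median of -0.10. The largest was Atp5d, of the stalk, with 0.17 (SE 0.076) and an edgeR adjusted p of 0.364. Cytosolic ribosomal proteins had 76 of 88 genes above 0, a median of 0.091 and a pair 4 median of -0.21. Mitochondrial ribosomal proteins had 64 of 77 above 0, a median of 0.057 and a pair 4 median of -0.11. No gene of complex V or of the ribosomal lists was called in either fit.

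Assembly factors and regulators of the chain had medians nearer to that of all genes. Assembly factors, which insert cofactors and join the subunits, had 27 of 42 above 0 and a median of 0.025, with medians of 0.084, 0.034, 0.0012 and -0.053 in pairs 1 to 4. Their largest value was that of Cox20, a complex IV assembly factor, at -0.21 (SE 0.25). Regulators, among them Nrf1, Gabpa, Tfam and the coactivators of the PGC-1 family, had 8 of 15 above 0 and a median of 0.0094. The coactivator Ppargc1b had the largest value, 0.23 (SE 0.24), and its level was 0.233 RPKM. Nrf1 itself, at 25.0 RPKM, had 0.0094 (SE 0.059). Of 10 genes listed here as alternative subunit isoforms 4 were expressed enough to be tested, and all 4 were above 0, with a median of 0.12. Whether the protein of each serves as such an isoform was not examined. Cox7a2l stood at 211.5 RPKM, Cox6b2 at 11.3 RPKM, Cox7a1 at 1.22 RPKM and Ndufa4l2 at 0.208 RPKM, the last with the largest log2 fold change, 0.27 (SE 0.46). Cox4i2, the isoform known to be induced at low oxygen, was at 0.127 RPKM. None of the genes of these 3 lists was called in either fit.

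Base composition moved with the result. The 59 genes had a median mRNA GC content of 51.3%, against 49.6% over all tested genes with a known GC content. The trend of counts on GC content differed between the libraries of a pair. The Spearman coefficient of that trend was higher in LG by 0.518, 0.148 and 0.301 in pairs 1, 2 and 3 and lower in pair 4, with a difference of -0.133. Between the groups the difference was within the spread of the 8 libraries (p = 0.229, two-sided exact permutation test over 70 assignments). That test did not use the pairs, so it does not measure the spread of the differences within pairs. Across the 59 genes, which are not independent replicates and share the same libraries, the log2 fold change with the block and GC content had a Spearman coefficient of 0.59. Across all tested genes with a known GC content it was 0.37. The 20 genes with the lowest GC content, 40.8% to 48.7%, had a median log2 fold change of 0.028, the 19 in the middle 0.089, and the 20 with the highest, 54.4% to 60.4%, 0.12.

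Offsets for each library's trend on GC content and length were then added to the block. They are fitted to remove this trend over all genes, so a coefficient near 0 follows largely from the fit and tests nothing. The Spearman coefficient with GC content was -0.11 across the 59 genes, and the medians in the 3 bands were 0.10, 0.12 and 0.087. The log2 fold change was above 0 for 58 of the 59 genes, against 56.3% of all genes, and the median was 0.11, against 0.021. The distance between the medians was 0.084, and it was 0.090 with the block alone. Ndufa5 at -0.038 was the 1 gene below 0. In this fit 166 of all genes (0.878%) were called and 0 of the 59, whose lowest adjusted p by edgeR was 0.166, and 10 of the 59 had an unadjusted p under 0.05, all higher, against 7.65% of all genes. Uqcrb, Cycs and Cox6c, the 3 genes lower in all 4 pairs, came to 0.018, 0.021 and 0.0044. Pair 4 remained the lowest for the 59 genes, with medians of 0.26, 0.18, 0.048 and -0.055 in pairs 1 to 4 after the trend was taken off. In pair 3, 35 of the 59 genes were then higher in LG, compared with 47 as measured, and the complex IV median of that pair went from 0.049 to -0.061. In the 19 other accessory subunits of complex I, pair 3 (-0.017) then lay below pair 4 (0.029).

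**Figure D5:**
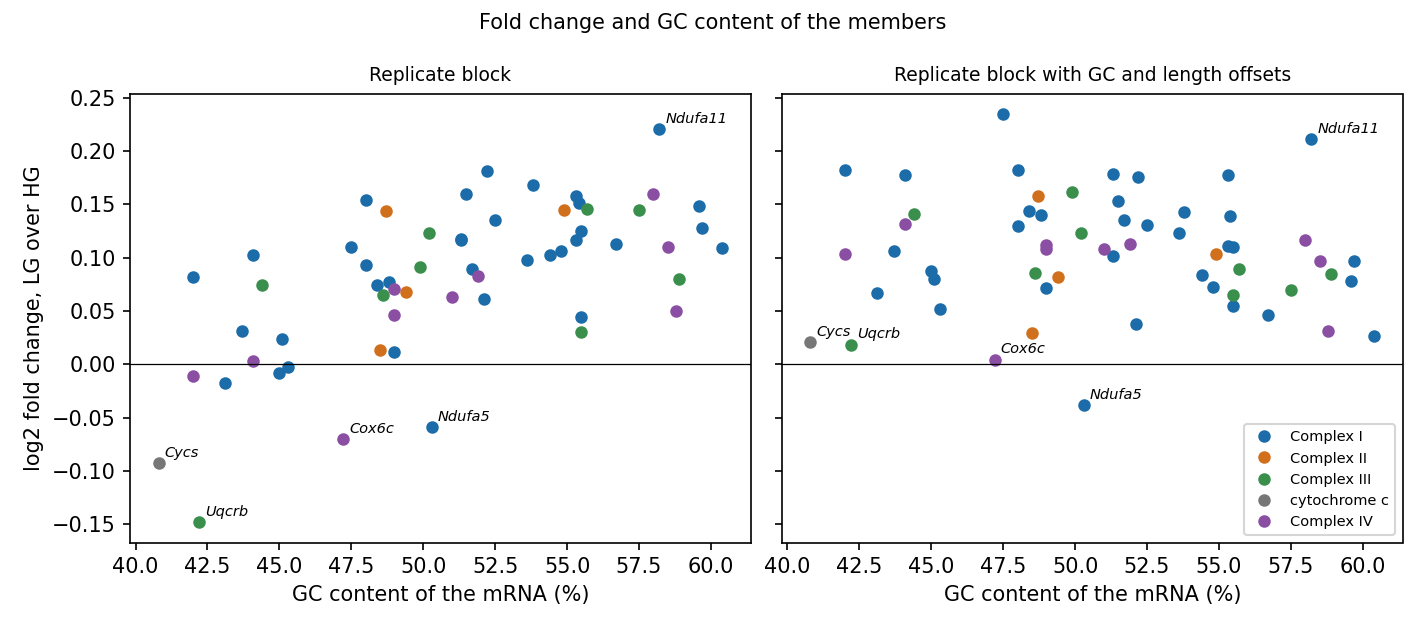
The log2 fold change of LG over HG (edgeR, replicate block) of the 59 genes against the GC content of their mRNA, without offsets (left) and with offsets for GC content and length (right). On the left the values climb with GC content and the lowest are Uqcrb and Cycs, and on the right they are level and only Ndufa5 lies below 0.

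Markers of other states of the lineage were set beside these values. The 8 markers of committed oligodendrocytes all had a log2 fold change above 0 with the block, with a median of 0.35. Of these, 2 were called with the block, against 0.418% of all genes, and 0 without it. Their medians were above 0 in all 4 pairs, 0.33, 0.20, 0.51 and 0.32, and they summed to 1553 to 3377 CPM (HG) and 1951 to 3961 CPM (LG). The 8 proliferation markers were all below 0, with a median of -0.19, 1 called with the block and 0 without it, and their pair medians were -0.097, -0.23, -0.19 and -0.31. They summed to 1995 to 2773 CPM (HG) and 1571 to 2099 CPM (LG). Of the 8 markers of myelinating oligodendrocytes 7 were tested, with 4 above 0 with the block and 3 without it, and 0 called in either fit. Their median was 0.14 with the block and -0.029 without it, while their pair medians were all below 0, at -0.047, -0.18, -0.11 and -0.10. Those tested summed to 533 to 756 CPM (HG) and 525 to 807 CPM (LG). The direction of the myelinating markers thus depended on the measure. In pair 4, where most respiratory chain genes were lower in LG, these marker lists kept the direction of their pair medians in the other pairs. Some other marker lists did not. The 10 astrocyte markers had pair medians of 0.26, -0.023, 0.22 and -0.070, and the 4 tested mural markers 0.46, 0.052, 0.032 and -0.044. Progenitor markers had 0.23, 0.034, -0.060 and 0.018, and the 7 tested neuronal markers 0.053, 0.037, -0.11 and 0.078. The part of these markers, of the GC trend and of the shared preparation code in the differences of the respiratory chain genes was not tested.

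Counting limits touch some genes more than others. At 95% identity over 80% of their length, transcripts of annotated pseudogenes matched 13 of the 59 genes, and besides the shares given above they held 26.2% as many counts as Ndufs5, 9.98% as Ndufa12 and 9.42% as Ndufab1. Exons of another gene overlapped 20 of the 59 genes and covered over 10% of the exon length in 8, most in Ndufb6 at 39% and Ndufa13 at 30%. How the authors' counting treated strand and reads that match several places is not given in the sources used here, so values of these genes are uncertain by an amount that was not tested.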

How the data were processed

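RNA was measured in 8 libraries, 4 HG and 4 LG. The authors' deposited values are counts: whole numbers for each Ensembl ID, with no scaling applied. Per the submitters' processing notes, mm10, STAR, featureCounts, CASAVA 1.8.2 and DESeq2 were used in some role. Which gene models were counted, and how strand and multiple matches were handled, is not given in the sources used here. Total counts ran from 50864130 to 65733928 per library, above the 15000000 to 30000000 read pairs of the labels, so a count may not be a read pair.

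Symbols, mRNA models, GC content and overlaps came from GENCODE M21 (GRCm38), which named 52125 of the 56980 IDs. In R 4.3.3, edgeR 4.0.16 fitted the whole table: filterByExpr kept 18905 genes, TMM scaled the libraries, and the quasi-likelihood test compared LG with HG, with Benjamini-Hochberg adjustment and a threshold of 0.05. SEs were derived from the fold change and its F value (|log2 fold change| / √F). Log2 CPM used a prior count of 2. RPKM used the length of the principal transcript. The fit with the replicate number as a block is given beside it, because the labels give same-numbered HG and LG libraries the same preparation code and their deviations from the group means correlated at r from 0.448 to 0.625 across genes, against at most 0.419 for other numbers. Offsets were smooth trends on GC content and length per library (mgcv 1.9.3). DESeq2 1.42.0, other filters, other scaling, preparation codes and left-out libraries were alternatives. Copies were found with blastn 2.17.0.

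The members, lists and tests were chosen with earlier results of these data known. Genes named are, per complex, those highest and lowest in level and in log2 fold change with the block, those fixed by role, any that passed, and in each pathway list the one with the largest absolute log2 fold change. Ndufa9, Ndufa12, Cox8a, Ndufs5, Ndufb6, Ndufa13, Nrf1, Cox7a2l, Cox6b2, Cox7a1 and Cox4i2 were added after their values were seen. The p-values measure the spread between these libraries only.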

Additional observations from a re-analysis of the deposited data

Results flagged for a closer look

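Among the named genes, a library stood apart from the other 3 of its group by Dixon's criterion in 4 of 126 groups checked, and chance alone marks about 1 in 20 groups, or 6.3 here. Ndufv1 was at a log2 CPM of 7.04 in LG 3, against 6.91 to 6.92 in the other LG libraries. Ndufa11 was at 4.35 in HG 1, while HG 2, HG 3 and HG 4 lay at 4.68 to 4.74. HG 1 enters the difference of pair 1, the largest of this gene's pairs. Ndufc2 was at 6.67 in LG 2, against 6.73 to 6.74 in the other LG libraries. Cox6b1 was at 7.66 in HG 2, against 7.99 to 8.05 in the other HG libraries.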

How the results depend on the processing

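The lowest value of the 59 genes in any library was 14.0 CPM, so depth left none of them near 0. Against 0 of all genes without a block, 79 were called with the replicate block, 166 with the replicate block and offsets, 1 with the preparation code as a block, 17 with libraries 1 and 2 summed, 7 by DESeq2 and 453 by DESeq2 with the block. With 1 library left out and no block 0 were called in each fit, and with the block leaving out pair 1 gave 6 calls, pair 2 gave 0, pair 3 gave 39 and pair 4 gave 148. Of the 59 genes, 0 were called in each of these fits except that without pair 4, which called 1. The median log2 fold change of the 59 ran from 0.056 to 0.12 with 1 library left out and was lowest without pair 1, at 0.035, and highest without pair 4, at 0.16. The median of complex IV ran from 0.0027 to 0.11 with 1 library left out and came to -0.0048 without pair 1. The number above 0 ran from 46 to 55 with 1 library left out, and with the block it was 45 without pair 1 and 54 without pair 4. Single genes near 0 changed sign, and the cause was not tested. With the offsets, without and with the block, Cycs came to 0.025 and 0.021, Uqcrb to 0.022 and 0.018, Ndufb3 to 0.082 and 0.088, Ndufs4 to 0.071 and 0.067, and Ndufab1 to 0.052 in both. Cox6c came to 0.0044 with both offsets and block. Ndufa4 came to -0.029 with libraries 1 and 2 summed and -0.0082 with a stricter filter (CPM of at least 5 in 4 libraries). By DESeq2 without and with the block Ndufab1 came to 0.0049 and 0.0044, with its size factors in edgeR to 0.0049 and with no filter to 0.0030. Ndufb3 came to 0.000083 by DESeq2 and 0.00037 with its size factors. With the replicate block, without pair 1 Cox5a came to -0.033, Cox6a1 to -0.026, Ndufa4 to -0.044, Ndufa5 to 0.015, Ndufb2 to -0.0097, Sdha to -0.0091 and Sdhd to -0.031. With the replicate block, without pair 2 Ndufa4 came to -0.017. With the replicate block, without pair 3 Ndufab1 came to 0.037, Ndufs1 to -0.0038 and Sdha to -0.011. With the replicate block, without pair 4 Ndufb3 came to 0.084 and Ndufs4 to 0.048. With 1 library left out and no block the ranges were -0.019 to 0.10 for Cox5a, -0.022 to 0.13 for Cox6a1, -0.0069 to 0.16 for Cox6b1, -0.19 to 0.037 for Cycs, -0.067 to 0.079 for Ndufa4, -0.12 to 0.039 for Ndufa5, -0.045 to 0.033 for Ndufab1, -0.011 to 0.099 for Ndufb2, -0.073 to 0.041 for Ndufb3, -0.076 to 0.047 for Ndufs4 and -0.0044 to 0.039 for Sdha.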
